A study of Mus musculus with 4 samples.

Results

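Nuclear receptors are transcription factors, many of which switch genes on or off when a small lipophilic ligand binds them. Acetylation of histone H3 at lysine 27 (H3K27ac) in the mouse heart was examined around 36 nuclear receptor genes outside the estrogen-related receptors, the PPARs and the receptors of the circadian clock, among 21728 protein-coding genes. The members were taken by gene name from GENCODE release M21. H3K27ac marks active promoters and enhancers, and chromatin immunoprecipitation with sequencing measured it in heart tissue of female B6CASTF1/J mice, a first-generation cross of C57BL/6J and CAST/EiJ, at an age of 2 months. The 4 libraries form 1 group. They are 2 technical replicates of each of 2 biological replicates, and a biological replicate pools 2 heart samples. Both pools carry the same donor identifier in the labels, so differences between them may be technical. No other tissue, sex, age or treatment was measured.

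The authors deposited 4 peak lists on mouse build mm10. The replicated list holds 63061 peaks called from both biological replicates, and it is the source of a value unless another list is named. A pooled list of 63494 peaks was also made from both, and the lists of replicate 1 and replicate 2 hold 55831 and 61333 peaks. A gene has a promoter peak where a peak comes within 1 kb of any of its transcription start sites (TSSs) in the annotation. Its acetylated length sums the bases under peaks in a window that extends 50 kb past either end of the gene. The fold of a peak is the authors' ratio, used only to rank peaks within a list. The lists carry no value per library and the read depth is unknown, so the spread is shown by the values of the replicate 1 and replicate 2 lists, with no test. The tissue was bulk heart: all 6 cardiomyocyte, 5 endothelial and 5 fibroblast marker genes had a promoter peak, and none of the 5 macrophage, 4 adipocyte, 5 hepatocyte and 5 neuron markers did. A change in the number of cells of a type and in the acetylation per cell cannot be told apart in such tissue.

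As background, most receptors of this superfamily bind DNA at copies of a hexamer close to AGGTCA, alone or as a pair. Thyroid hormone, retinoid, vitamin D and sterol receptors work as heterodimers with a retinoid X receptor, and steroid receptors bind as homodimers after they leave a complex of chaperones. Corepressors held by the receptors without ligand are exchanged for coactivators that acetylate histones when a ligand binds. In the heart, thyroid hormone sets contractile and calcium handling genes, corticosteroid receptors act on growth and fibrosis, and retinoic acid and COUP-TFII shape the atria during development.

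Of the 36 receptor genes, 26 (72.2%) had a promoter peak, against 57.3% of protein-coding genes. In the other lists the count was 25, beside 57.5% of genes in the pooled list, 55.7% in the replicate 1 list and 58.4% in the replicate 2 list. The receptor gene that made the difference was Rorb. At the 5' end of the gene itself 22 of the 36 receptor genes had a peak, against 53.7% of genes, or 11671 of 21728. The receptor genes have a median of 6 annotated start sites and all protein-coding genes 3. The part of this in the share with a promoter peak was not tested. No peak at all lay within 50 kb of 4 receptor genes, Pgr, Hnf4g, Nr2e1 and Nr2e3, against 20.9% of genes. The median acetylated length was 6.22 kb, beside 4.39 kb over all protein-coding genes. The receptor genes are also longer, with a median of 46.8 kb against 17.4 kb, and their windows were covered to a median of 3.62% against 3.2%. In the replicate 1 list the medians were 5.17 kb for the receptor genes and 3.6 kb for all genes, and in the replicate 2 list 7.24 and 5.37 kb. The receptor median was thus the higher in each list, by less than the distance between the replicates.

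The groups of receptors differed in how many of their genes had a promoter peak, and also in the CpG content given below. Over all protein-coding genes the share was 57.3%. Every member had one among the thyroid hormone receptors (2 genes), the retinoid receptors (5), the NR4A receptors (3), the COUP-TF and testicular receptors (5) and the ROR receptors (2), although the Rorb peak stood in the replicated list alone. Among the steroid receptors 3 of 5 had a promoter peak, among the sterol, bile acid, xenobiotic and vitamin D receptors 3 of 6, and among the remaining, largely tissue-restricted receptors 3 of 8. The plot of promoter peak widths shows these groups gene by gene.

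**Figure D1:**
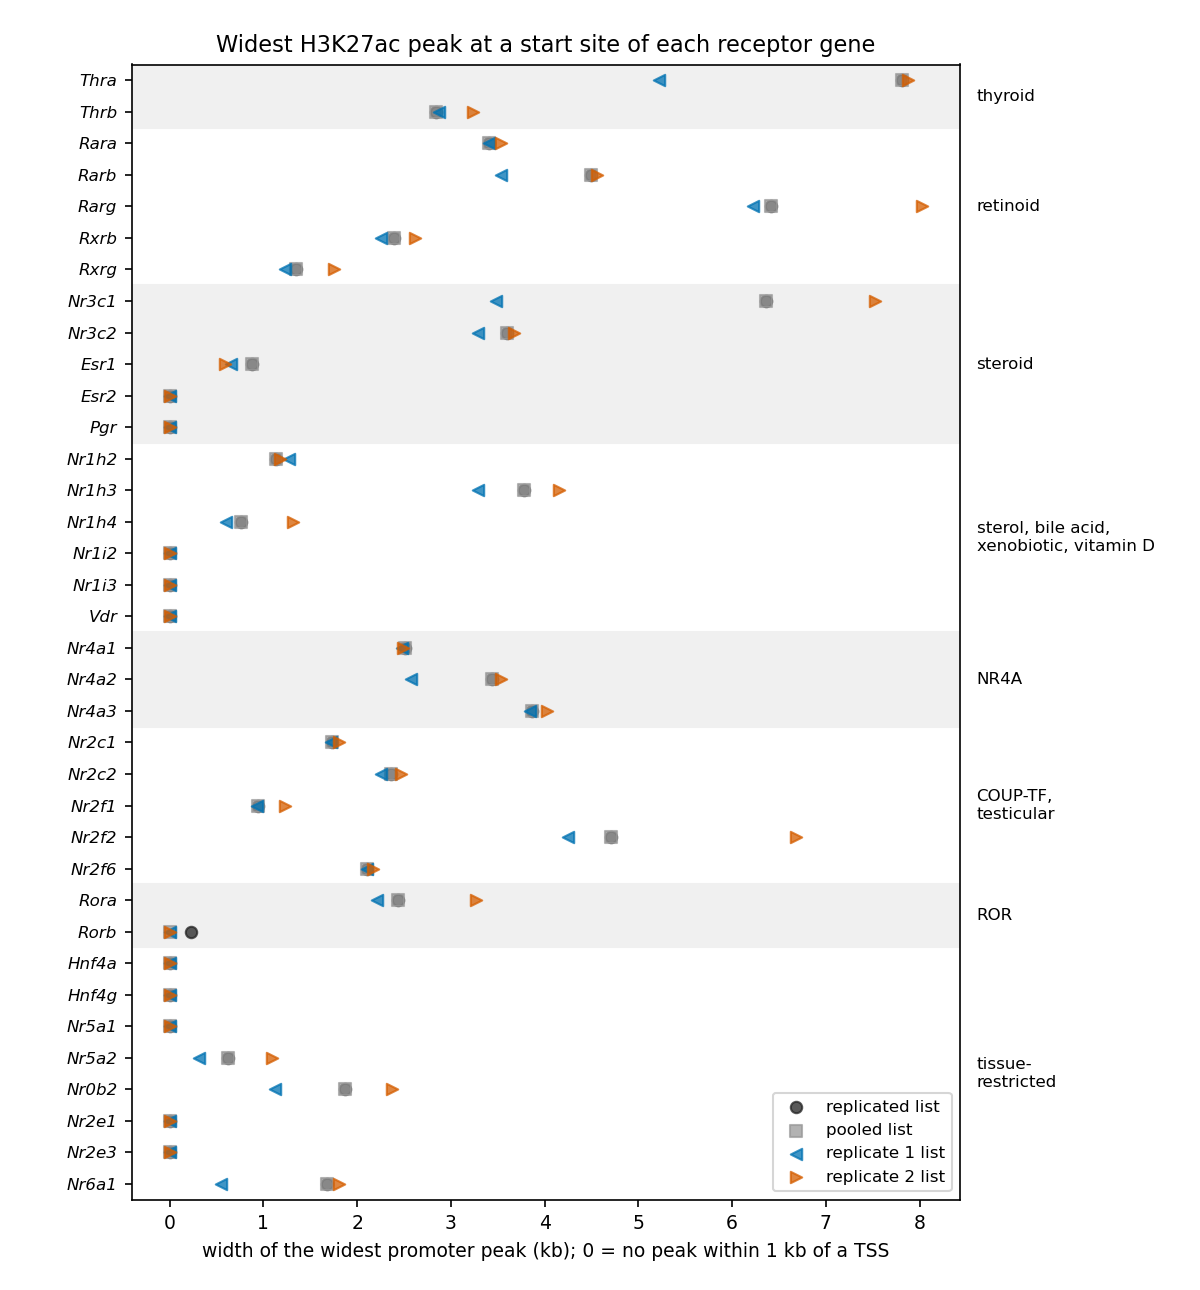
Width in kb of the widest promoter peak of each of the 36 receptor genes, with a symbol for each of the 4 peak lists and a value of 0 where no peak lies within 1 kb of a TSS. Thra, Rarg and Nr3c1 have the widest peaks of the replicated list (7.81, 6.42 and 6.36 kb). At 0 in every list are 10 receptor genes, and Rorb is above 0 in the replicated list only.

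Promoter peaks went with the CpG content of the start sites, as they did over all genes. A CpG ratio, the observed over the expected number of CG pairs in the 500 bp to either side of a TSS, of at least 0.6 was reached at some TSS of 26 receptor genes, and 23 of them had a promoter peak. Among all protein-coding genes of that kind 85.5% had a promoter peak. Every gene of the thyroid hormone, retinoid, NR4A, COUP-TF and testicular, and ROR groups reached that ratio. So did 3 of 5 steroid receptor genes, 2 of 6 of the sterol to vitamin D group and 4 of 8 of the tissue-restricted group. The part of CpG content in the group counts was not tested. Of the 10 receptor genes below that ratio 3 had a promoter peak, against 25.5% of such genes. The exceptions at this limit were Vdr, Nr2e1 and Nr5a1, rich in CpG without a peak, and Nr1h3, Nr1h4 and Nr0b2, poor in CpG with a peak. The start rich in CpG and the start with a peak need not be the same. Esr1 reached the limit only at a start without a peak, with 0.74, and its starts with a peak had ratios of 0.32 to 0.38. Nr1h3 had a highest ratio of 0.53, at its 5' end. Of all genes with a highest ratio between 0.5 and 0.6, 62.9% had a promoter peak. The Nr1h3 starts under its strongest promoter peak had lower ratios, of 0.32 to 0.38.

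The upstream sequences of 4 receptor genes show both sides of this split, and are given with CG pairs in capitals. Each run is 200 bases, 5' to 3' in the direction of the gene, and ends at the base before the RefSeq start site on GRCm38, the assembly of mm10. Nr2f6 (chr8:71381953-71382152, minus strand) and Nr2e1 (chr10:42583591-42583790, minus strand) have 35 and 11 CG pairs, and Nr0b2 (chr4:133553176-133553375, plus strand) and Nr1i3 (chr1:171213770-171213969, plus strand) have 3 and 1. A peak overlapped the run of Nr2f6 in all 4 lists and the run of Nr0b2 in all but the replicate 1 list, and none overlapped those of Nr2e1 and Nr1i3.
Nr2f6: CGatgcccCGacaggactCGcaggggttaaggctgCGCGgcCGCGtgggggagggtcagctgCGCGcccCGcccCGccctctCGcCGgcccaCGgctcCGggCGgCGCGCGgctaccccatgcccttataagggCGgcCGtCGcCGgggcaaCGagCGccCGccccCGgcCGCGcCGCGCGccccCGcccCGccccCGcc
Nr2e1: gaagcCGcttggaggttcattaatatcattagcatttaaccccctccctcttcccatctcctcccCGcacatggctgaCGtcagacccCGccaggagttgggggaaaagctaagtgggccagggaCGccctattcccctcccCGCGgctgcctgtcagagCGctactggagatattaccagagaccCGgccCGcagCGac
Nr0b2: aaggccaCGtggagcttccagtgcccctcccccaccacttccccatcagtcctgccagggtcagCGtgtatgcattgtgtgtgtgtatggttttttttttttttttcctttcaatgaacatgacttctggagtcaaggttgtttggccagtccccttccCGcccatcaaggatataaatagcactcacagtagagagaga
Nr1i3: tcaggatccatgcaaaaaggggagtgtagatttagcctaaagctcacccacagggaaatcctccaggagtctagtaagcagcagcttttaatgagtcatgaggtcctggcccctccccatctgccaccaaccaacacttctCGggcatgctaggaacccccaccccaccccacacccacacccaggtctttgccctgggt
The acetylated Nr0b2 promoter holds the TATA box letters TATAAA at 28 bases before the start site, which 13.6% of the 32851 RefSeq promoters hold on either strand. Its CpG ratio of 0.26 is close to the 0.25 of Nr1i3, which had no promoter peak.

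**Figure D2:**
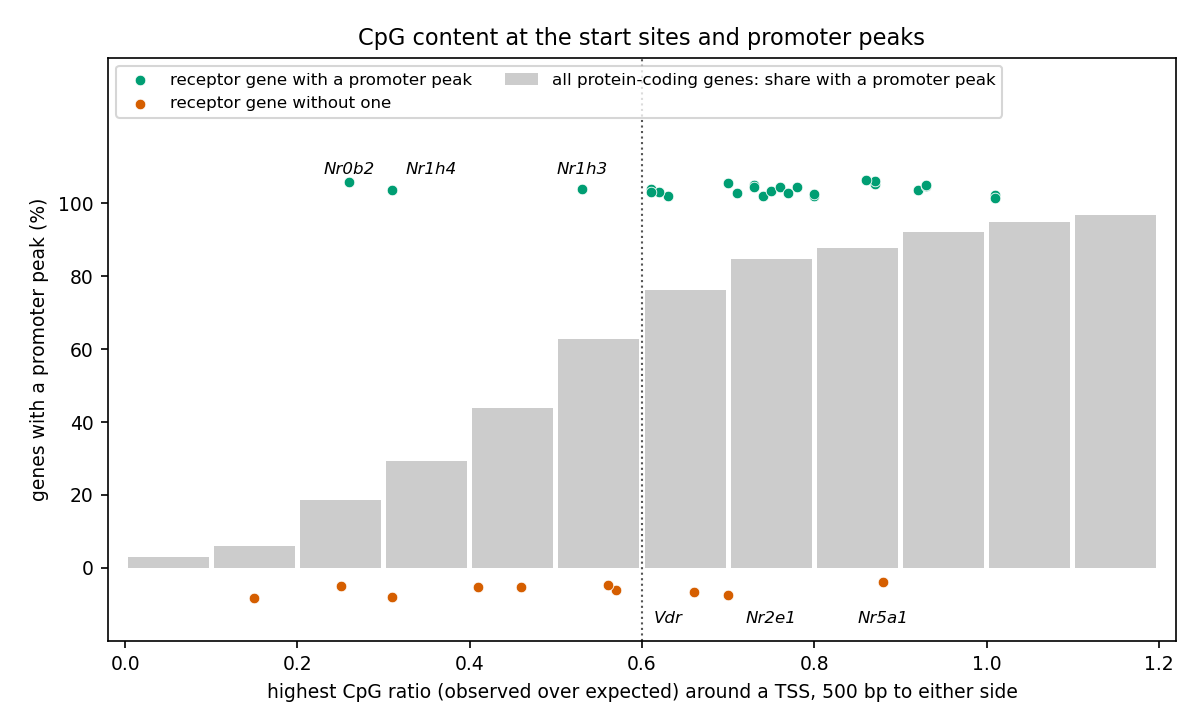
Grey bars give the share of protein-coding genes with a promoter peak (vertical axis, percent) by the highest CpG ratio at a TSS (horizontal axis, bins of 0.1, the last open above). Green points above the bars are receptor genes with a promoter peak and orange points below 0 are those without, spread vertically only to keep them apart, and the dotted line marks the ratio of 0.6. The share climbs from 3.11% in the lowest bin to 96.9% in the highest. The 6 named genes lack a peak at a ratio of at least 0.6 or have one below it.

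Thyroid hormone receptors. Thra encodes the main thyroid hormone receptor of the heart, and had the longest acetylated stretch of all 36 members. The gene lies at chromosome 11, 98740638 to 98769006, on the plus strand. Acetylated length was 52.4 kb in the replicated list, 52.6 kb in the pooled list, 47.8 kb in the replicate 1 list and 57.4 kb in the replicate 2 list, and 99.6% of protein-coding genes had no more. Only 14.9 kb lay in the 4 peaks nearest to a Thra start site. The rest was nearest to start sites of its neighbours. It was 15.2 kb for Nr1d1, the clock receptor gene that overlaps the end of Thra, 13.6 kb for Msl1, 6.67 kb for Med24 and 1.98 kb for Casc3. Some of the peaks nearest to Nr1d1 had summits inside Thra, 22.3 to 26.9 kb from the Thra 5' end. Within the Thra gene itself lay 18.6 kb of acetylated length. The widest promoter peak spanned 7.81 kb with a fold of 36.4, which 99.3% of the genes with a promoter peak did not exceed. It was 5.22 kb wide in the replicate 1 list and 7.88 kb in the replicate 2 list.

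Thrb, the gene of the other thyroid hormone receptor, lies at chromosome 14, 17660261 to 18038090. It had 10.6 kb of acetylated length in the replicated list, 10.8 kb in the pooled list, and 10 and 13.3 kb in the lists of replicates 1 and 2. All 10 peaks were nearest to Thrb itself, and all lay inside the gene. Its start sites near the 5' end shared a peak of 2.84 kb with a fold of 14.8. The start sites 303 and 321 kb further inside, of Thrb-207 and Thrb-202, had none. A cluster of intronic peaks reached from 14.1 to 124 kb, the strongest of them 2.28 kb wide with a fold of 8.9 at 83.4 kb, and a last pair stood near the end of the gene at 368.9 and 369.3 kb.

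Retinoid receptors. Rara, Rarb and Rarg encode the receptors of retinoic acid, and Rxrb and Rxrg the retinoid X receptors that serve as partners. The acetylated length of Rara was 22 kb in the replicated list and 21 kb in the pooled list, with 18.4 and 26.3 kb in the lists of replicates 1 and 2. Rarb had 19.5 and 18.8 kb in the same first lists, and 14.6 and 23.7 kb in the replicates. The values of Rarg were 19.1, 18.9, 17.1 and 21.3 kb in that order. The ranges between the replicates overlapped for all 3 genes. Rxrb had 5.75 kb and Rxrg 1.64 kb in the replicated list, and for both even the higher replicate value, 6.72 and 3.18 kb, was below the lower replicate value of each retinoic acid receptor gene.

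The acetylated start sites of Rara and Rarb were internal ones. The 5' end of Rara, the start of Rara-203, had no promoter peak, while start sites 9.88 to 11.9 kb inside the gene and Rara-202 at 32.6 kb had peaks with folds of 17.4, 24.6 and 12.9. In Rarb, at chromosome 14 from 16430839 to 16819156 on the minus strand, the start of the long transcripts Rarb-203 and Rarb-204 had none. A peak of 4.49 kb with a fold of 16 stood 243 to 244 kb further on, at Rarb-207, Rarb-201 and 3 other starts. The peak was present in all lists, at 3.54 kb in replicate 1 and 4.56 kb in replicate 2. Of the other 13 peaks nearest to Rarb, all inside the gene, the strongest had a fold of 8.25. Another 8 peaks inside the gene, with 6.2 kb, were nearest to a Top2b start site. The strongest of these had a fold of 10.9 at 321.2 kb. Rarg was acetylated at both its 5' end, with a fold of 9.95, and at start sites from 11 to 13.9 kb inside, where a peak of 6.42 kb had a fold of 20.8.

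The internal Rarb promoter is shown because, as background, it is the textbook case of a receptor gene with a response element for its own receptor. The run is 200 bases at chr14:16575477-16575676, minus strand, it ends before the RefSeq start site, and capitals mark a direct repeat of the receptor hexamer with 5 bases between the copies (DR5).
Rarb: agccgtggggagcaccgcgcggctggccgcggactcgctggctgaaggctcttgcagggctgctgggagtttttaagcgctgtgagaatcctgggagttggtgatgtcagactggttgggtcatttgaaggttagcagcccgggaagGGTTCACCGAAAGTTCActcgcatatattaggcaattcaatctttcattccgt
The DR5 letters begin 53 bases before the start site. Among the 46 RefSeq promoters of 32 receptor genes this was the only DR5, searched on both strands with A or G at the first and G or T at the third base of each hexamer, and 0.0974% of the 32851 RefSeq promoters hold such letters. The peak overlapped the run in all 4 lists.

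Rxrb had a promoter peak of 2.39 kb with a fold of 30.7, which 97.1% of genes with a promoter peak did not exceed. The windows around its start sites also hold a start of Slc39a7 and Gm20427, so this peak cannot be assigned to Rxrb alone. Rxrg, a retinoid X receptor of muscle, had 2 peaks. That at Rxrg-202, 19.9 kb inside the gene, was 1.35 kb wide with a fold of 10.2 and was in every list, while that at the 5' end was 0.295 kb wide and was missing from the replicate 1 and pooled lists.

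Steroid receptors. The corticosteroid receptor genes stood apart from the sex steroid receptor genes. Nr3c1, the glucocorticoid receptor gene, had 20.8, 20.7, 18.2 and 21.5 kb of acetylated length in the replicated, pooled, replicate 1 and replicate 2 lists. For Nr3c2, the mineralocorticoid receptor gene, the values were 20.6, 20.4, 16 and 27.4 kb in the same order. Esr1, the estrogen receptor alpha gene, had 1.18 kb in the replicated list and at most 0.905 kb in the other lists, Esr2 4.11 kb and Pgr, the progesterone receptor gene, 0 kb in every list. The replicate values of Nr3c1 and Nr3c2 overlapped, and all of them were above every value of Esr1, Esr2 and Pgr. Of the Esr2 length, 3.72 kb lay in peaks nearest to Syne2.

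Nr3c1 had no peak at its 5' end, the start of Nr3c1-209. A single peak of 6.36 kb with a fold of 29.4 covered the other start sites, 28.1 to 32.2 kb inside the gene, where the CpG ratio reached 1.01 at Nr3c1-201. Its width depended on the replicate, at 3.48 kb in replicate 1, where 3 separate promoter peaks were called, and 7.52 kb in replicate 2. Another 5 peaks nearest to Nr3c1 stood 40.4 to 48 kb before the gene, the strongest with a fold of 6.9.

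Nr3c2, at chromosome 8, 76899442 to 77245012, had peaks of 3.6 kb and 1.01 kb over the start sites from its 5' end to 3.03 kb inside, with folds of 19.9 and 11.3. The starts of Nr3c2-201 at 8.83 kb and Nr3c2-205 at 229 kb had none within 1 kb, although a peak with a fold of 11.9 stood at 233.4 kb. All 17 peaks of its window were nearest to Nr3c2 and 15 of them were more than 2.5 kb from any TSS. Of these 17 peaks, 12 were in both replicate lists and 5 in replicate 2 only. Esr1 had a peak of 0.883 kb with a fold of 3.22 near its 5' end, and its start sites from 98.6 kb on had none.

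**Figure D3:**
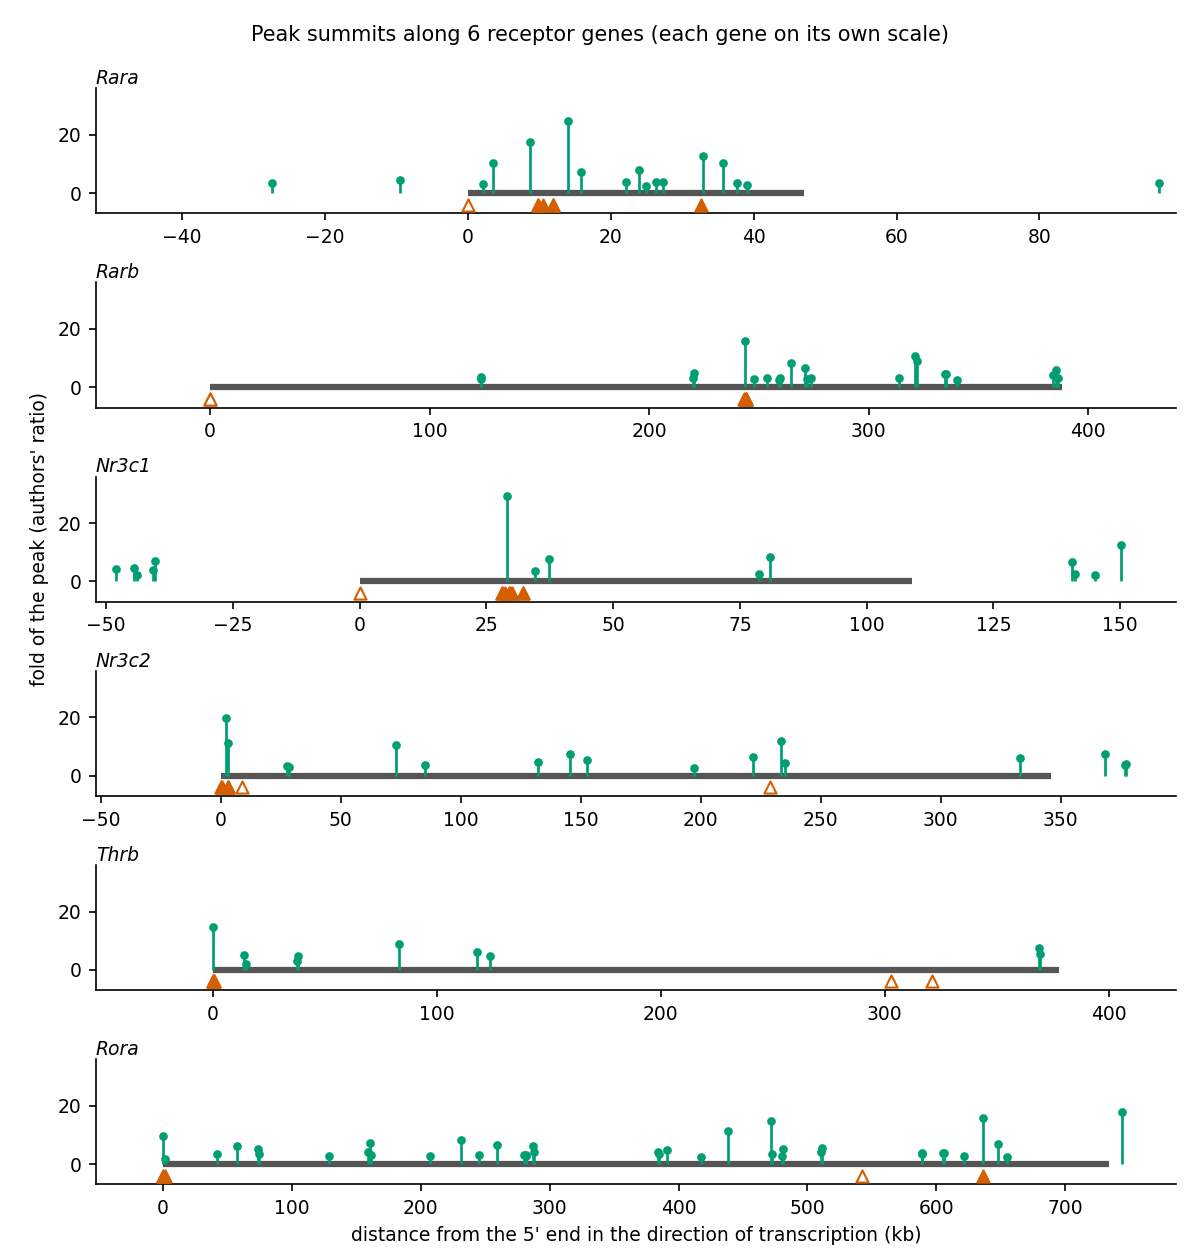
Summits of the replicated peaks along 6 receptor genes, plotted by distance from the 5' end in kb (horizontal axis, a separate scale for each gene) and by fold (vertical axis). Grey bars are the genes, and triangles are annotated TSSs, filled where a peak lies within 1 kb and open where none does. The open triangle at 0 in Rara, Rarb and Nr3c1 contrasts with the filled ones at 0 in Nr3c2, Thrb and Rora.

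A promoter peak away from the 5' end with none at the 5' end itself was found in 4 of the 26 receptor genes with a promoter peak, Rara, Rarb, Nr3c1 and Nr5a2, or 15.4%, against 6.26% of all genes with one. The receptor genes have a median of 6 annotated start sites and all protein-coding genes 3, and the part of this in the difference was not tested.

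Sterol, bile acid, xenobiotic and vitamin D receptors. The liver X receptor genes Nr1h2 and Nr1h3, whose proteins sense oxysterols, both had promoter peaks. Nr1h3 had 9.27 kb of acetylated length in the replicated and pooled lists and 7.89 and 10.6 kb in the lists of replicates 1 and 2. The starts 7.68 to 7.95 kb inside the gene shared a peak of 3.78 kb with a fold of 19.9. A peak of 1.55 kb with a fold of 10.1 stood at the 5' end, where Acp2 and Gm13783 also start, so this peak cannot be assigned to Nr1h3 alone. Nr1h2 had a peak of 1.13 kb with a fold of 17.2 and 3.75 kb in all. Nr1h4, the bile acid receptor gene FXR, had a weak promoter peak of 0.76 kb with a fold of 3.81, and only 4.38% of genes with a promoter peak had a fold as low or lower.

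No promoter peak was called in any list at Nr1i2, Nr1i3 and Vdr, the genes of the pregnane X, constitutive androstane and vitamin D receptors. Nr1i3 and Vdr nevertheless had long acetylated windows, of 32.1 and 22.5 kb. Of the 32.1 kb around Nr1i3, 12.8 kb lay nearest to Pcp4l1 and 0.178 kb nearest to Nr1i3. Around Vdr, 20.9 kb lay nearest to Hdac7 and 1.57 kb to Vdr itself, in 3 intronic peaks of which the strongest was 0.997 kb wide with a fold of 9.48 and was in both replicate lists. A similar case was Hnf4a, with 15.6 kb of which 9.62 kb was nearest to Fitm2 and 1.31 kb to Hnf4a. The plot of acetylated length separates these neighbours from the receptor genes.

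**Figure D4:**
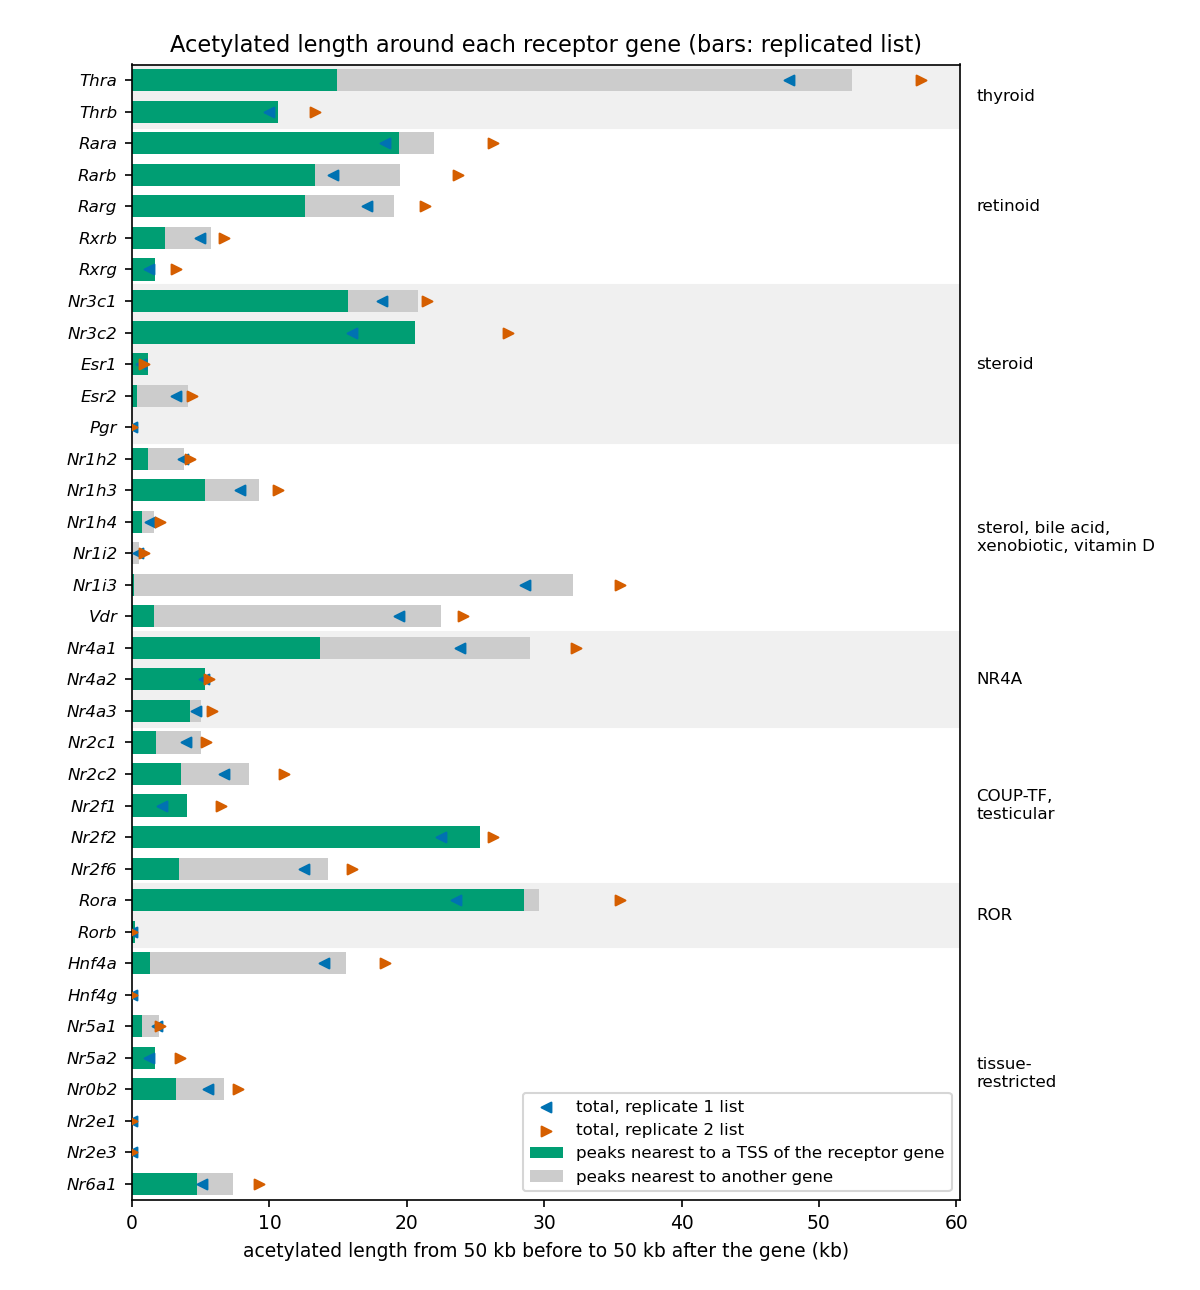
Acetylated length in kb from 50 kb before to 50 kb after each receptor gene. Bars are the replicated list, split into peaks nearest to a start site of the receptor gene (green) and to another protein-coding gene (grey), and triangles are the totals of the replicate 1 and 2 lists. The bars of Nr1i3, Vdr and Hnf4a are nearly all grey, and those of Nr3c2 and Nr2f2 are all green.

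NR4A receptors. The 3 NR4A genes encode receptors without a known hormone that are induced within minutes to hours by many stimuli. Nr4a1, at chromosome 15, 101254269 to 101274795, had 29, 28.5, 23.9 and 32.3 kb of acetylated length in the replicated, pooled, replicate 1 and replicate 2 lists. Of this 13.7 kb was nearest to Nr4a1, in 8 peaks of which 4 were over 2.5 kb from any TSS. Its strongest peak, 3.76 kb wide with a fold of 16.1, had its summit 7.6 kb before the 5' end. The promoter peak at Nr4a1-201, 12.6 kb inside, was 2.51 kb wide with a fold of 11.3, so it was not the strongest peak of the gene. Nr4a2 and Nr4a3 had shorter windows of 5.34 and 5.04 kb and promoter peaks with folds of 28.6 and 23.6. The summit of the Nr4a3 peak lay 2.08 kb from the nearest Nr4a3 start site, and Nr4a3 lost its promoter call when the summit itself had to lie within 1 kb. The replicate values of Nr4a1 were all above those of Nr4a2 and Nr4a3, which lay between 4.63 and 5.85 kb.

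The promoters of the NR4A genes are shown because the 3 share letters that the choice of genes did not use. Each run is the 250 bases before the RefSeq start site, at chr15:101266596-101266845, plus strand for Nr4a1, at chr2:57124004-57124253, minus strand for Nr4a2 and at chr4:48045055-48045304, plus strand for Nr4a3. Capitals mark TGACG, the core of the cAMP response element, on either strand.
Nr4a1: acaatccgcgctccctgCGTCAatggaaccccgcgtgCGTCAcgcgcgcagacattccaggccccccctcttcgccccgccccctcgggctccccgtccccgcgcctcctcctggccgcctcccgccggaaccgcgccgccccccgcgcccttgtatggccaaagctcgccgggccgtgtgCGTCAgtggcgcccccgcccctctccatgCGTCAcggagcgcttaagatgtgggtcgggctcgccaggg
Nr4a2: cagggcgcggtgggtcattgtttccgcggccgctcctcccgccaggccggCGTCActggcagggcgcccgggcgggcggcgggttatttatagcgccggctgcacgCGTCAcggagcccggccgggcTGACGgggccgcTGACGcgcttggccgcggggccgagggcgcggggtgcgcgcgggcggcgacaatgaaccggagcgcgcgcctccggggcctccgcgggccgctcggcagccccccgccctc
Nr4a3: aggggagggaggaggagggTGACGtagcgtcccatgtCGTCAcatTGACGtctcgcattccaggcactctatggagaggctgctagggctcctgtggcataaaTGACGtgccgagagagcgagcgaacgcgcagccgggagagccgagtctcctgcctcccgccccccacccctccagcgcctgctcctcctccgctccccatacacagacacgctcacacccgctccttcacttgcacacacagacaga
Each run holds 4 copies. At least 1 copy stands in 14 of the 46 receptor promoters and in 20.8% of all RefSeq promoters of the same 300 bases. At least 4 copies stand in 0.231% of all RefSeq promoters, and among the receptor promoters only in these 3. This limit of 4 was chosen after the letters had been seen. The copies lie 40 to 233 bases before the start site in Nr4a1, 111 to 200 in Nr4a2 and 147 to 231 in Nr4a3. A peak overlapped all 3 runs in all 4 lists. In the replicated list the runs of Nr4a1 and Nr4a3 lay wholly under a peak. The 4 copies of Nr4a2 lay under none, between a peak that ends at 57124048 and another that begins at 57124233.

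COUP-TF and testicular receptors. Nr2f2 encodes COUP-TFII, a receptor of atrial and venous identity. Among protein-coding genes, all of its 25.3 kb of acetylated length was nearest to Nr2f2. Some of these peaks were closer to starts of genes that are not protein-coding. Those with summits 7.19 and 43.1 kb from an Nr2f2 start site were 348 and 726 bp from such a start. The acetylated length was 24.9 kb in the pooled list and 22.5 and 26.3 kb in the lists of replicates 1 and 2. The 16 peaks stood within and on both sides of the gene of 14.8 kb, all 6 start sites had a promoter peak, and 14 of the 16 peaks were in both replicate lists. The widest promoter peak, 4.71 kb, had a fold of 5.04, and the strongest a fold of 13.1. Nr2f1, the gene of COUP-TFI, had 4.03 kb and a strongest promoter peak of 0.938 kb with a fold of 8.65. The windows around its start sites also hold a start of A830082K12Rik, so this peak cannot be assigned to Nr2f1 alone. The widest peak of Nr2f1, 1.97 kb, had its summit 989 bp from a start of a gene that is not protein-coding. Its acetylated length was 2.16 kb in replicate 1 and 6.51 kb in replicate 2, both far below either value of Nr2f2.

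Nr2f6 had 14.3 kb in the replicated and pooled lists, and 12.5 and 16 kb in the lists of replicates 1 and 2. Only 3.4 kb was its own, in 2 promoter peaks of 2.11 and 1.28 kb, and 5.78 kb lay nearest to Ushbp1. Nr2c1 and Nr2c2, the testicular receptor genes, had a promoter peak each, 1.73 and 2.36 kb wide with folds of 19.4 and 25.1. For Nr2c2 the acetylated length was 8.5, 8.32, 6.73 and 11.1 kb in the 4 lists.

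ROR receptors. Rora, at chromosome 9, 68653786 to 69388246, is the longest member gene at 734 kb and had the most peaks. Acetylated length was 29.6 kb in the replicated list, 28.5 kb in the pooled list, and 23.6 and 35.5 kb in the lists of replicates 1 and 2. This was 3.54% of its window, near the 3.2% that is the median of all protein-coding genes. All 38 peaks nearest to Rora lay inside the gene, and 35 of them were over 2.5 kb from any TSS. Of the 38, 22 were in both replicate lists, 9 in replicate 2 only, 2 in replicate 1 only and 5 in neither. Their folds ranged from 1.85 to 15.9 with a median of 3.84. Promoter peaks stood at the 5' end, with a fold of 9.73, and at Rora-202, 636 kb inside, with a fold of 15.9, while Rora-203 at 542 kb had none.

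The strongest Rora peak away from start sites, 471.7 kb inside the gene with a fold of 14.6 and a width of 1.68 kb, is shown as an example of an intronic peak. The run is the 200 bases around its summit at chr9:69125401-69125600, plus strand, and capitals mark the AP-1 letters TGANTCA and the receptor hexamer AGGTCA.
Rora: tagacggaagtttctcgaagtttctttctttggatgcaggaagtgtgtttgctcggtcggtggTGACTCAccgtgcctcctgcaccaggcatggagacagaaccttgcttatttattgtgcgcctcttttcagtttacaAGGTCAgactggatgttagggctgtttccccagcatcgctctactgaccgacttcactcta
In the 300 bases around the summit, the hexamer stood in 20.7% of the 179 peaks nearest to a receptor gene and in 18.8% of all 63061 peaks, on either strand, so the shares were close. The AP-1 letters stood in 10.6% and 7.99%. The hexamer preceded by T, part of the element that ROR receptors bind, stood in 5.59% and 2.8%, or 10 of the 179 peaks. Other letters went the other way, with the hexamer preceded by AA in 1.12% and 1.6% and TGACG in 12.8% and 13.6%. More motifs were searched than are given here, and no difference was tested.

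Rorb, the receptor gene of brain and retina, had a peak of 0.225 kb with a fold of 2.58 just before its 5' end, and no other within 50 kb. The peak was in neither replicate list nor in the pooled list, so its call rests on the replicated list.

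Tissue-restricted receptors. Nr0b2 encodes SHP, a receptor that lacks the DNA-binding domain and represses other receptors. It had 6.7 kb of acetylated length in the replicated list, 6.92 kb in the pooled list, and 5.53 and 7.75 kb in the lists of replicates 1 and 2, of which 3.19 kb in the replicated list was its own. Its promoter peak was 1.87 kb wide with a fold of 9.57. The other peak nearest to it stood past the gene, 9.9 kb from its 5' end, with a fold of 9.95. Nr6a1, the germ cell nuclear factor gene, had 7.36, 6.46, 5.08 and 9.22 kb in the 4 lists. Its promoter peak at the 5' end was 1.68 kb wide, but 0.546 kb in replicate 1 and 1.81 kb in replicate 2. An intronic peak at 103.4 kb was wider, at 3.04 kb.

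The remaining 6 genes of this group had a weak promoter peak or none. Nr5a2, the liver receptor homolog gene, had a promoter peak of 0.626 kb with a fold of 3.7 at starts 10.9 and 11.3 kb inside the gene. Nr5a1, the steroidogenic factor gene, had 2 intronic peaks with folds of 5.57 and 4.17 and none at a start site. Hnf4a had no promoter peak, and Hnf4g, Nr2e1 and Nr2e3 had no peak in their windows in any list. As background, these last genes are known from gut, brain and retina.

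Across the receptor genes, the replicate 2 list held more length under called peaks than the replicate 1 list. Acetylated length was greater in replicate 2 for 31 members and in replicate 1 for 0, with a median ratio of 1.36, beside 1.42 over all protein-coding genes. The widest promoter peak was wider in replicate 2 for 23 of the 25 members with one in both, the exceptions being Esr1 and Nr1h2. Of the 179 peaks nearest to a receptor gene, 129 were in both replicate lists, 30 in replicate 2 only, 5 in replicate 1 only and 15 in neither.

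All 15 coactivator, 10 corepressor and 10 chaperone genes had a promoter peak, beside 57.3% of all genes. These genes are mostly rich in CpG at a start site, 14 of the coactivator, 8 of the corepressor and all 10 of the chaperone genes, and for such genes the share was 85.5%. Among the coactivators, Tacc2, Ncoa3 and Kat2a had the longest acetylated windows, of 43.9, 34.4 and 15.7 kb. In Tacc2 and Ncoa3 most of it was nearest to the gene itself, 30.3 and 30.7 kb, but in Kat2a only 1.03 kb was. Among the corepressors, Gps2 had 22.5 kb and Hr 13.8 kb, of which 1.1 and 2.85 kb were their own. The longest windows of the chaperone genes were those of Hsp90ab1 with 18.7 kb, Fkbp5 with 16.6 kb and Ptges3, the gene of p23, with 16.5 kb. Their own peaks gave another order, with 14.4 kb at Fkbp5, 3.21 kb at Hsp90ab1 and 2.76 kb at Ptges3.

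Genes of ligand supply and response were less uniform. Of the 14 genes of corticosteroid supply and response 10 had a promoter peak, or 71.4%, beside 57.3% of all genes. The longest windows were those of Dusp1 with 67.6 kb, of which 42.3 kb was its own, Zbtb16 with 60.6 and 43.4 kb, and Tsc22d3, the gene of GILZ, with 29.1 kb, all its own. Hsd11b2, whose enzyme inactivates glucocorticoids in the kidney, Pck1 and Scnn1a had no promoter peak. Of the 12 genes of thyroid hormone supply and response 7 had a promoter peak, or 58.3%, close to the share of all genes. Among them, Atp2a2, which encodes the calcium pump SERCA, had 42.2 kb. Myh6, the alpha myosin heavy chain gene, had 29.9 kb and Klf9 26.3 kb. Their own peaks made up 32.1, 9.12 and 26.3 kb of this. The deiodinase genes Dio1, Dio2 and Dio3 had no promoter peak. Klf9 and Fkbp5 stand in 2 of these lists each.

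Of the 11 liver X receptor targets 9 had a promoter peak, or 81.8%, beside 57.3% of all genes. Abca1, a cholesterol exporter, had 22 kb, Pltp 15.9 kb and Srebf1 15.8 kb, of which 21, 5.54 and 4.74 kb were their own. The sterol exporters of liver and gut, Abcg5 and Abcg8, had no promoter peak. Of the 14 genes of retinoid synthesis, binding and breakdown 5 had a promoter peak, or 35.7%, and Aldh1a2, Crabp1 and Crabp2 had none. Acetylated length was 36.6 kb at Dhrs3, 8.66 kb at Cyp26b1 and 5.86 kb at Aldh1a3. Of these lengths 28.4, 8.66 and 0.403 kb were their own. The Aldh1a3 peak, 0.403 kb wide with a fold of 2.94, lay away from the 5' end and was missing from the replicate 1 list. None of the 12 targets of the bile acid, xenobiotic and vitamin D receptors had a promoter peak, among them Abcb11, Cyp24a1 and Cyp27b1. Of these 12 genes 10 are poor in CpG at every start site, and for such genes the share was 25.5%. Among the partner and target genes, the part of CpG content in the counts was not tested further.

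**Figure D5:**
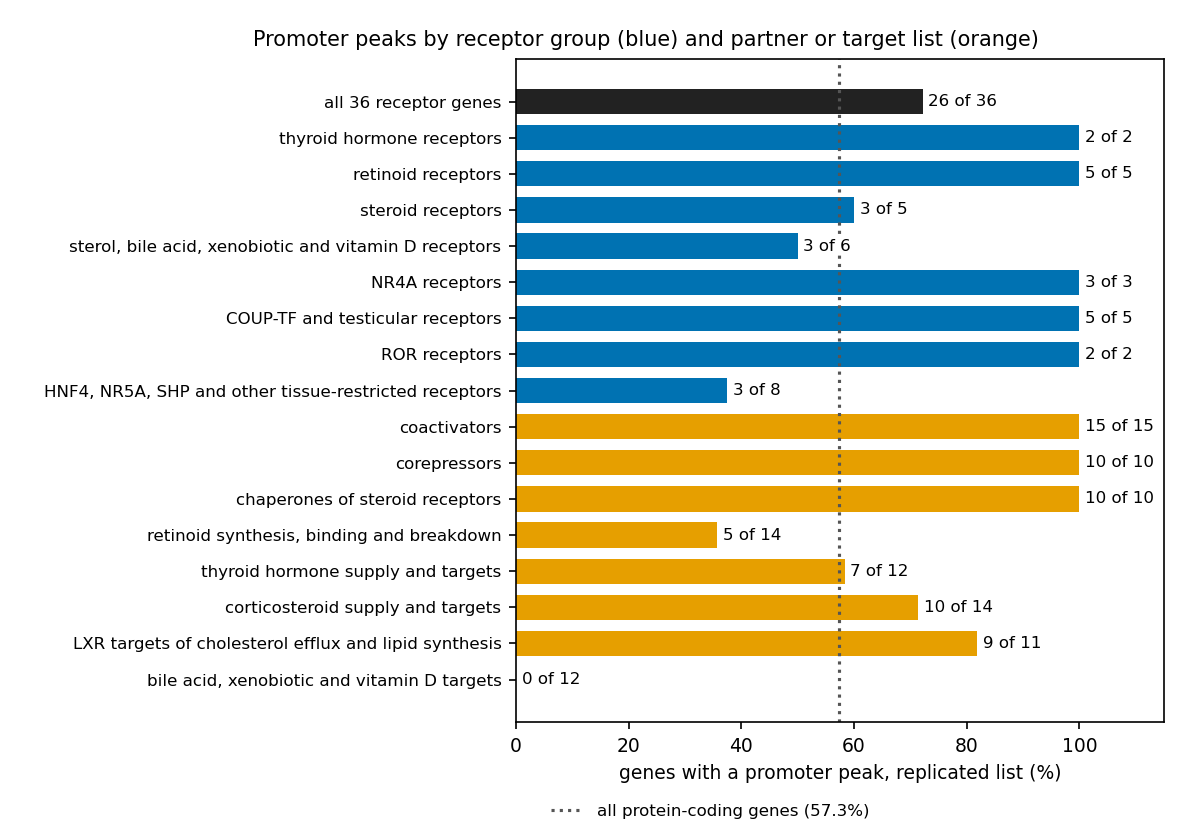
Share of genes with a promoter peak in the replicated list (percent, with counts) for all 36 receptor genes (black), for the 8 receptor groups (blue) and for 8 lists of partner and target genes (orange). The dotted line is the share of all protein-coding genes, 57.3%, and 3 partner lists stand at 100% while the list of bile acid, xenobiotic and vitamin D targets stands at 0.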

How the data were processed

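H3K27ac peaks of 4 heart libraries were read from 4 lists deposited by the authors. Their build is mm10, per the labels. The fold of a peak is the authors' ratio, and the −log10 q is the authors' deposited value. Both were used only to rank or filter peaks within a list. Aligner, caller and depth were not given in the sources used here. Which alignments each list came from was taken from the deposited text files.

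Genes and TSSs came from GENCODE release M21. The 36 members and all gene lists and motifs were chosen with earlier results of these data known. Peaks counted in a window when they shared at least 1 bp with it, and belonged to the protein-coding gene with the TSS nearest to the summit. Members with a promoter peak and at least the median acetylated length, or whose promoter call differed between lists, were described in all 4 lists. In each partner or target list, up to 3 genes with a promoter peak and the most acetylated length, and up to 3 without one in alphabetical order, were named. A gene that this rule selects is not reported here. Sequences came from RefSeq promoters and the GRCm38 genome, and 32 members matched. Thra, Nr3c1, Hnf4g and Nr5a1 were not among them. Scripts used Python 3.11.15, numpy 2.4.6, pandas 2.3.3 and pysam 0.24.0, and were tested on simulated data. With 1 group and no value per library, no test was made.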

Additional observations from a re-analysis of the deposited data

How the results depend on the processing

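The count of 26 receptor genes with a promoter peak ranged from 20 to 26 over the alternatives, and was 20 of 28 without members whose promoter windows hold another gene's start site. The 8 members with such windows were Rarb, Rxrb, Nr3c2, Nr1h3, Nr2c2, Nr2f1, Nr5a1 and Nr2e1. Leaving out either replicate gave a count of 25. The 4 receptor genes without a peak within 50 kb became 7 with the peaks at or above the median fold, and 5 when either replicate was left out. The median acetylated length of 6.22 kb was 4.55 kb with a window of 20 kb, 18 kb with a window of 100 kb, 1.4 kb within the gene body and 2.79 kb for peaks nearest to the receptor gene. It was 5.17 to 7.24 kb when a replicate was left out. Of 160 recomputed counts of groups and lists 6 moved by over 1.5 times: the ROR receptors fell to 1 without the Rorb call in 4 settings, and with the 5' end alone the retinoid receptors had 3 and the retinoid metabolism list 3. No paired analysis was possible because there is 1 group. Depth per library is unknown, and its part in the absence of a peak at a gene was not tested.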
